A study of Homo sapiens with 12 samples.

Results

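The average response to the histone deacetylase inhibitor ITF2357 was taken over 2 human blood cancer lines, HEL and UKE1, with all 12 arrays of the series. For each gene it was the mean of the log2 change in HEL and the log2 change in UKE1, each ITF2357 minus untreated. The average can be carried by 1 line, so the shared response was described by a stricter rule. A gene belonged to the shared core when it passed the test on average and in each line with the same sign, and changed at least 2-fold in each line. Of 18417 genes measured, 165 formed the core that went up and 110 the core that went down. Because the core was chosen by these measured changes, their size and direction in core genes are a description without a test.

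The 4 groups, with 3 arrays each, were HEL cells with 250 nM ITF2357 for 6 h, HEL cells for 6 h without it, UKE1 cells with 250 nM ITF2357 for 6 h, and UKE1 cells for 6 h without it. Both are established lines labelled as erythroleukemia cells, and both carry the JAK2V617F mutation, treated and untreated cultures alike. UKE1 medium also held horse serum, hydrocortisone and HEPES buffer, which the HEL medium lacked. RNA was measured on Affymetrix Gene 1.0 ST arrays, which probe transcripts along their whole length. The arrays of each group are described as independent triplicates, so the p-values rest on the spread within these triplicates.

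Histone deacetylases remove acetyl groups from lysines of histones and of many other proteins. Histone acetyltransferases add the groups, and bromodomain proteins read them. When deacetylases are inhibited, acetylation rises across the genome, and transcription of many genes goes up while that of many others goes down. In JAK2V617F cells the mutant kinase signals without cytokine through STAT5 to genes of survival and growth, next to the transcription factors that set the red cell and platelet programmes.

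In a short panel, markers of the labelled erythroid lineage lay mostly above the median gene level in HEL and mostly below it in UKE1. This is a rough gauge, since levels of different probes share no common scale. Of 7 measured erythroid markers, 6 lay above the median gene level of 7.01 (log2) in both HEL groups, and 1 of 7 did in both UKE1 groups. In UKE1, HBZ (6.96 treated, 6.95 untreated) and KLF1 (6.81 and 6.84) lay just under the median. Erythroid genes outside the panel went both ways: in untreated UKE1 cells RHAG had a mean level of 12.25 and EPB42 one of 5.52. HBE1, an embryonic globin, had a mean level of 12.96 in treated and 12.95 in untreated HEL cells, and 5.24 in treated and 5.19 in untreated UKE1 cells. All 3 measured megakaryocyte markers lay above the median in all 4 groups. Of 9 T and NK cell markers, 2 lay above it in HEL and 4 in UKE1, where CD3G had a mean level of 9.56 with and 9.92 without drug. For B cells the count was 0 of 5 in HEL and 2 of 5 in UKE1, for monocytes and granulocytes 2 and 3 of 8, and for fibroblast, endothelial and epithelial markers 3 and 2 of 11. Arrays of different lines correlated at r = 0.882 to 0.902, against 0.975 to 0.980 with and without drug in 1 line and 0.996 to 0.998 within a group.

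Sequence near the transcription start is shown for 4 core genes: UTP20 and KAT5, which went down in both lines, and TMOD2 and HDAC3, which went up. The promoter windows are those of RefSeq, 300 bases long, on GRCh38.p14. UTP20 lies at chr12:101279855-101280154 (plus strand), KAT5 at chr11:65712002-65712301 (plus strand), TMOD2 at chr15:51751347-51751646 (plus strand) and HDAC3 at chr5:141636800-141637099 (minus strand). Capitals mark every match, on either strand, to 1 of 8 letter patterns: CACGTG (the E-box that MYC and MAX bind), GGGCGG (the GC box), CCGGAAG (an ETS site), CCAAT (the CCAAT box), TATAAA (the TATA box), TGACGTCA (the CREB site), TGANTCA (the AP-1 site) and the pattern TGCNCNC, with overlapping matches merged.
UTP20: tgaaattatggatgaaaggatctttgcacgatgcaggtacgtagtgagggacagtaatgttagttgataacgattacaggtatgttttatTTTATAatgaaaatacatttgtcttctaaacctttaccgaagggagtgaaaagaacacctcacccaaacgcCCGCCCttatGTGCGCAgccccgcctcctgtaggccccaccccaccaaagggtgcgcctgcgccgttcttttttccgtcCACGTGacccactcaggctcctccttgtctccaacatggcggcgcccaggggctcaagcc
KAT5: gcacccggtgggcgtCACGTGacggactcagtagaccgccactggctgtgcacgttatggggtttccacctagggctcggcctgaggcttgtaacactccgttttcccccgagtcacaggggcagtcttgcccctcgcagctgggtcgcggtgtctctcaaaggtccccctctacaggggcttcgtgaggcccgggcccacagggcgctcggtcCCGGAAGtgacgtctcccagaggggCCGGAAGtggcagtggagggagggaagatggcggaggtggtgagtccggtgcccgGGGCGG
TMOD2: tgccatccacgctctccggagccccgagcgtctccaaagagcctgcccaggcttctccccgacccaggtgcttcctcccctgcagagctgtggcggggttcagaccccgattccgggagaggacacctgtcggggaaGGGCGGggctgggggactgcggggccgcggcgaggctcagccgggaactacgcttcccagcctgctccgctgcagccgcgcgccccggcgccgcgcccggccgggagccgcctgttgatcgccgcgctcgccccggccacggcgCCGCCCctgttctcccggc
HDAC3: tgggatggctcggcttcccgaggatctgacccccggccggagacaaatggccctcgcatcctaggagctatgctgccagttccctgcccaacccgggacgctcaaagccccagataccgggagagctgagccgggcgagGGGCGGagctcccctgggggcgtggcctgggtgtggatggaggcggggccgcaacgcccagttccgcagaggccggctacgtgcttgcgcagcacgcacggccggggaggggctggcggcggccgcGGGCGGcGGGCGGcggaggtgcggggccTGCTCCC

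The windows of UTP20 and KAT5 each hold 1 CACGTG and 1 GGGCGG, and KAT5 also holds 2 CCGGAAG. TMOD2 holds 2 and HDAC3 3 GGGCGG, with no CACGTG in either. GC content was 50.7% in UTP20, 67.3% in KAT5, 75.3% in TMOD2 and 74% in HDAC3. A window was found for 137 of the 165 core genes that went up, for 76 of the 110 that went down, and for 13769 protein-coding genes tested. GGGCGG stood in 83.2% of the windows of core genes that went up, in 65.8% of those that went down and in 60.7% of all coding genes tested. CCAAT stood in 50.4%, 34.2% and 36.4% of the same sets, and CCGGAAG in 4.38%, 17.1% and 14.8%. CACGTG stood in 10.9%, 17.1% and 8.95%, and in 50% of the 22 windows found for ribosome biogenesis genes. Median GC content was 68%, 62.5% and 63.3% in the core that went up, the core that went down and all coding genes tested. Against all coding genes, the core that went up was higher in both GGGCGG and GC content. The core that went down was higher in GGGCGG and slightly lower in GC content. The part of base composition in these shares was not tested. Over all 27305 windows of the table GGGCGG stood in 44.6%, CACGTG in 7.43%, CCAAT in 35.7% and CCGGAAG in 10.7%. These are shares of windows with the letters, and nothing was measured at these sites.

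On average, 4802 genes rose (26.1% of those tested) and 4585 fell (24.9%), together 9387 (51.0%; limma, adjusted p under 0.05 over all genes). At least 2-fold on average, 317 rose and 236 fell. The median change over all genes was 0.0 on the log2 scale, and rises and falls were close in number. Both depend on scaling: the RMA levels had array medians of 6.41 to 6.5, so a shift of all genes together could not be seen. Rises were 51.2% of the calls as deposited and 44.9% with each array centred on its median. Of the genes called on average, 2583 also rose in each line (14.0% of all genes tested) and 2385 fell in each line (12.9% of all genes tested). A further 1823 were called in HEL alone and 2085 in UKE1 alone, and 118 were called in both lines with opposite signs. The remaining 393 passed the test only when both lines were averaged.

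These last genes had small changes, with a median size of 0.16 and a highest of 0.48 on the log2 scale. USP8, a deubiquitinase of endosomes, had levels of 8.99, 9.24 and 8.95 in treated HEL cells, against 8.80, 9.01 and 8.62 in untreated HEL cells. The UKE1 arrays read 8.57, 8.54 and 8.51 with ITF2357, against 8.33, 8.33 and 8.23 without. The groups overlapped in HEL and not in UKE1, and the average rise was 0.25 ± 0.0676 (SE, adjusted p = 0.0071). CIDECP1, a pseudogene, rose by 0.25, and HUWE1, a ubiquitin ligase, MYL5, a myosin light chain, and NDUFB7, a subunit of mitochondrial complex I, fell by 0.18, 0.21 and 0.15. The median standard error of the average was 0.057, against 0.081 for the change in either line.

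At least 2-fold in both lines, 0.896% of genes went up and 0.597% went down. The size rule left little room for overlap: in all 275 core genes the 3 treated arrays lay beyond the 3 untreated ones in each line, as they did for 5786 of all genes (31.4%) in the same direction in both lines. The core genes that went up had a median level of 8.53 in treated and 7.12 in untreated HEL cells, and 8.43 in treated and 7.1 in untreated UKE1 cells. Those that went down had a median level of 7.73 in treated and 9.11 in untreated HEL cells, and 7.37 in treated and 8.75 in untreated UKE1 cells. Per gene, the smaller of the changes in the lines was a median 0.85 of the larger for genes that went up and 0.9 for those that went down. The responses of the lines differed by the test of the difference in 72 of the 275 core genes, against 4395 of all genes (23.9%). Among these, UKE1 had the larger change in 30 of 48 genes that went up and in 15 of 24 that went down. Over the whole core, tested difference or not, HEL had the larger change in 84 of 165 genes that went up and in 46 of 110 that went down. The plot of both lines shows the core among all genes. Just inside the size rule were CEP70 and ACO1, whose smaller change was 1.004 (log2), and FAM20B and VPS52 at -1.001. Just outside were LPCAT3 (1.0) and INPP4A (0.999), SRSF6 (-1.0) and SNORA6 (-0.997).

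**Figure D1:**
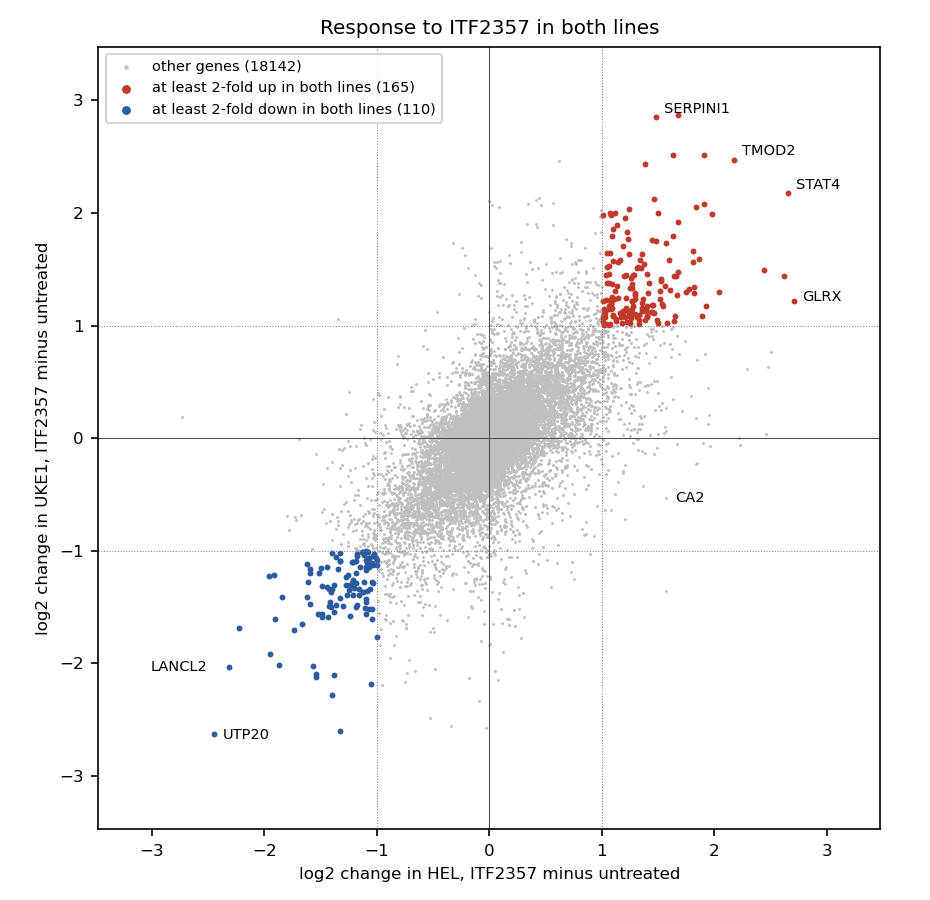
Log2 change of each of 18417 genes in HEL (x axis) and UKE1 (y axis), ITF2357 minus untreated, with the core genes coloured and dotted lines at 2-fold. The 165 core genes that went up fill the upper right corner and the 110 that went down the lower left, with STAT4 and UTP20 farthest along the diagonal. CA2 rose in HEL and fell in UKE1.

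STAT4, which carries signals of cytokine receptors to the nucleus, had the largest shared increase, ranked by the smaller of the changes in the lines. Its level was 8.70, 8.80 and 8.87 in treated HEL cells, against 6.30, 6.19 and 5.91 in untreated HEL cells. In UKE1 it was 7.51, 7.68 and 7.80 with ITF2357, against 5.57, 5.65 and 5.25 without. All treated arrays lay above all untreated arrays of both lines, and the average change was 2.42 ± 0.084 (SE), or 5.34-fold. TMOD2, which caps actin filaments in neurons, had 7.04, 7.04 and 7.27 in treated HEL cells, against 4.65, 5.07 and 5.11 in untreated ones. Levels in UKE1 were 8.03, 8.08 and 8.24 with drug, against 5.47, 5.53 and 5.93 without, which gave a 5.0-fold increase on average. CYRIA, a binder of the GTPase RAC1, changed almost equally in both lines: 1.98 in HEL and 1.99 in UKE1. Its arrays read 9.39, 9.31 and 9.37 against 7.37, 7.41 and 7.36 in HEL, and 9.90, 9.95 and 9.91 against 7.90, 7.99 and 7.89 in UKE1, treated before untreated.

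The other 12 genes with the largest shared increase had varied roles. RGL1 activates the GTPase Ral and changed by 2.21 (log2), and PAG1, a lipid raft adaptor that recruits the kinase CSK, by 1.69. MYBL1, a relative of MYB, changed by 1.68 in HEL and 2.88 in UKE1, and SAMHD1, which degrades deoxynucleotides, by 1.63 and 2.52. The responses of the lines differed for MYBL1, SAMHD1 and RGL1. VAMP1, a vesicle fusion protein, changed by 1.80, MEGF9, a membrane protein with EGF-like domains, by 1.95, PCYOX1, a prenylcysteine oxidase, by 1.74, and EFNA4, an ephrin ligand, by 1.65 on average. ROPN1L, a protein of sperm flagella, changed by 1.99, ARMC9, a protein of the ciliary base, by 1.71, RBM11, an RNA-binding splicing factor, by 1.59, and CTTNBP2NL by 1.73.

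**Figure D2:**
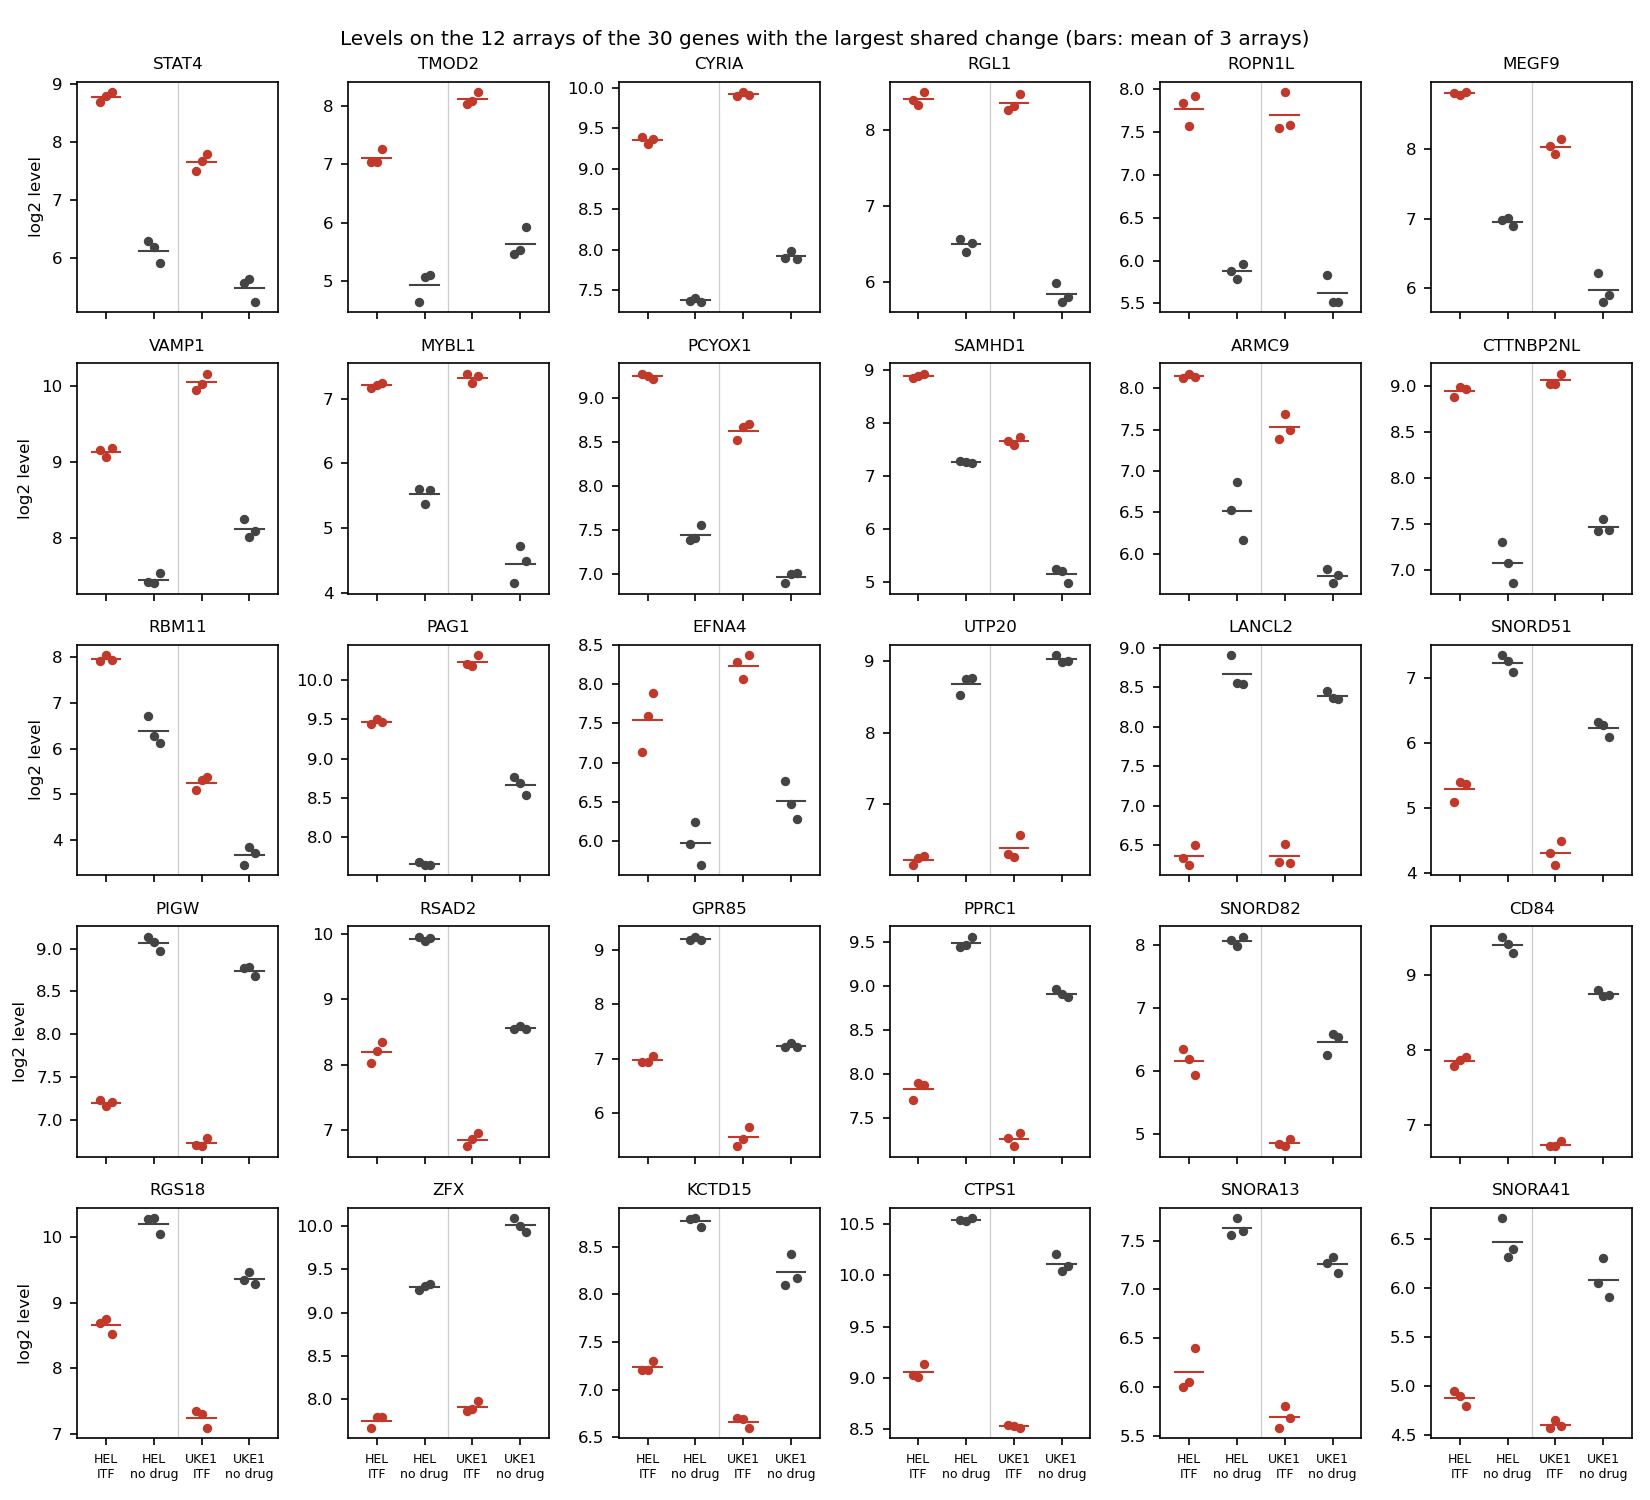
Log2 level on each array (points) and mean of 3 arrays (bars) for the 15 genes with the largest shared increase and the 15 with the largest shared decrease, ITF2357 in red left of untreated in grey for HEL and then UKE1; each panel has its own y axis. In every panel the treated points lie clear of the untreated points of the same line, as the choice of these genes required. The lines start at like levels in some panels (UTP20, LANCL2) and apart in others (RBM11, GPR85).

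UTP20, a scaffold of the complex that processes precursor rRNA, had the largest shared decrease. Its level was 6.16, 6.25 and 6.28 in treated HEL cells, against 8.53, 8.74 and 8.76 in untreated HEL cells. In UKE1 it was 6.31, 6.27 and 6.58 with ITF2357, against 9.08, 8.99 and 9.0 without. The lines did not differ in response beyond the test, and the average change was -2.54 ± 0.0613 (SE), 5.81-fold lower. PIGW, which acylates inositol in the making of GPI anchors, had 7.23, 7.16 and 7.21 in treated HEL cells, against 9.14, 9.08 and 8.97 in untreated ones. In UKE1 it had 6.71, 6.69 and 6.79 with drug, against 8.77, 8.78 and 8.68 without, 3.84-fold lower on average. CTPS1, which makes CTP, had 9.03, 9.01 and 9.13 in treated HEL cells, against 10.54, 10.53 and 10.56 in untreated ones. The UKE1 arrays read 8.54, 8.53 and 8.51 with drug, against 10.21, 10.04 and 10.09 without.

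The other genes with the largest shared decrease had varied roles. CD84, a receptor of the SLAM family, changed by -1.79, RGS18, a brake on G protein signals in platelets, by -1.83, and GPR85, an orphan receptor, by -1.95. The responses of the lines differed for these 3 genes and for ZFX, a zinc finger transcription factor at -1.82. LANCL2, a LanC-like protein, changed by -2.17, RSAD2, an antiviral gene induced by interferon, by -1.72, PPRC1, a coactivator of mitochondrial genes, by -1.66, and KCTD15 by -1.54. The remaining 4 of the 15 were the small nucleolar RNAs (snoRNAs) SNORD51, SNORD82, SNORA13 and SNORA41.

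The core that went down held many short noncoding RNAs, and the core that went up held none. Of its 110 genes, 95 were protein-coding, 13 snoRNAs, 1 a microRNA and 1 a long noncoding RNA, while 164 of 165 core genes that went up were protein-coding. snoRNAs guide the chemical modification of rRNA: those named SNORD direct ribose methylation and those named SNORA direct pseudouridylation. Of 175 snoRNAs measured, 18 rose and 97 fell on average, and 77 fell in both lines, with a median change of -0.27 beside 0.0 over all genes. SNORD51 had 5.09, 5.40 and 5.37 in treated HEL cells, against 7.35, 7.26 and 7.09 in untreated ones. Levels in UKE1 were 4.31, 4.13 and 4.49 with drug, against 6.32, 6.27 and 6.09 without, which gave an average change of -1.93 ± 0.0769 (SE). SNORD82 (-1.76), SNORD105 (-1.63), SNORD20 (-1.59), SNORA41 (-1.53), SNORA13 and SNORD102 (both -1.52) and SNORD49A (-1.45) followed on the log2 scale. The other 5 were SNORA3B (-1.37), SNORA3A (-1.26), SNORA24 (-1.25), SNORA27 (-1.12) and SNORA62 (-1.11).

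Most snoRNAs are cut out of introns of other genes. By RefSeq coordinates, 74 measured snoRNAs lay within exactly 1 other measured gene, 55 genes in all. The snoRNAs of these pairs had a median change of -0.36 and the surrounding genes one of -0.1. Where the snoRNA fell (53 pairs), the surrounding gene fell in 31, rose in 2 and was not called in 20. Each of the 7 core snoRNAs with such a gene changed more than that gene did. This was largely set by the choice, since core snoRNAs were picked by the size of their change and the surrounding genes were not. SNORD51 and SNORA41 lie within EEF1B2, a translation elongation factor, which fell by 0.40. SNORD82 and SNORD20 lie within NCL, nucleolin, which fell by 0.35, and SNORD49A within SNHG29, which fell by 0.34. SNORA3A and SNORA3B lie within RPL27A, a ribosomal protein gene, whose change was -0.11 with adjusted p = 0.0368. That call was lost when 1 array was left out in 7 of 12 cases, with changes from -0.42 to -0.06 over all alternatives. Array rows were taken as annotated, and strand and spliced forms were not compared.

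**Figure D3:**
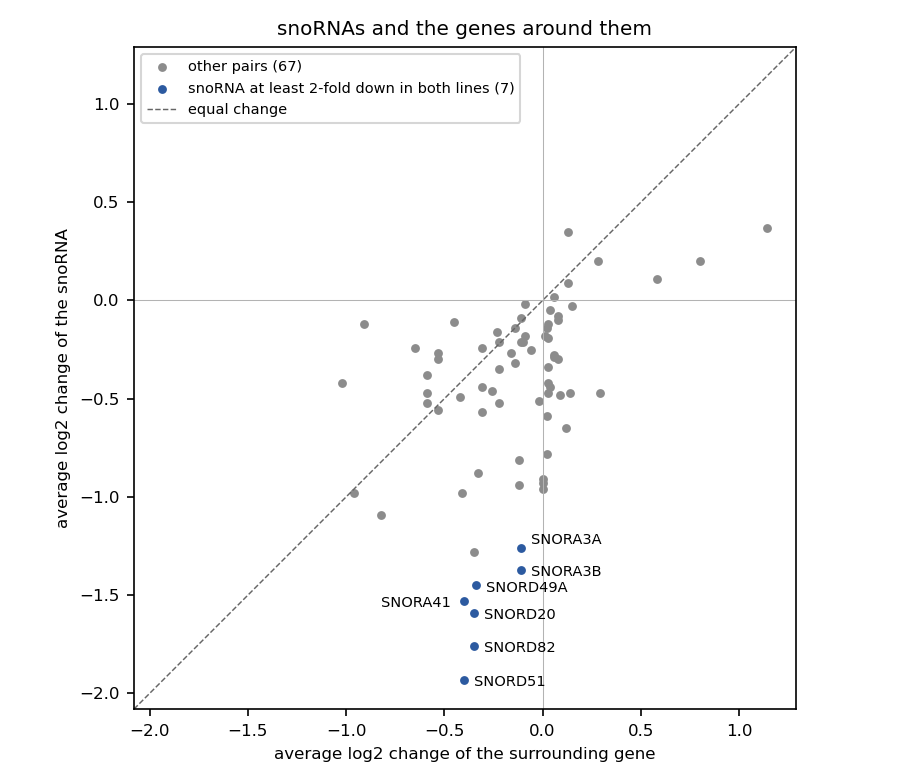
Average log2 change of 74 snoRNAs (y axis) against that of the measured gene around each (x axis), with a dashed line of equal change. The 7 snoRNAs of the core that went down, picked by the size of their change, lie between -1.93 and -1.26. The genes around them, not picked by size, lie between -0.40 and -0.11.

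The microRNA gene of the core was MIR223, on chromosome X, whose product is abundant in myeloid cells. The array row covers the gene and not a mature strand, so both mature RNAs of RefSeq are shown, with the seed (bases 2 to 8) in capitals. They lie at chrX:66018895-66018916 and chrX:66018937-66018958 on the plus strand of GRCh38.p14, in that order.
hsa-miR-223-5p: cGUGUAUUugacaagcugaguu
hsa-miR-223-3p: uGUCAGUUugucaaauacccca

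MIR223 had levels of 8.30, 8.46 and 8.44 in treated HEL cells, against 10.22, 10.38 and 10.34 in untreated HEL cells. In UKE1 it had 6.68, 6.92 and 6.88 with ITF2357, against 8.15, 8.09 and 7.89 without. The groups lay apart in both lines, and the fall was larger in HEL (-1.91) than in UKE1 (-1.22) by the test of the difference. Of 173 microRNA genes measured, 20 rose and 35 fell on average, smaller shares than the 26.1% and 24.9% of all genes. The long noncoding RNA of the core was CCDC26, with -1.05 in HEL and -2.18 in UKE1. Of 632 long noncoding RNAs, 69 rose and 92 fell, also below the shares of all genes. Both kinds lay low on the arrays, with median levels of 4.81 for microRNA genes and 5.49 for long noncoding RNAs, beside 7.01 over all genes. Whether low levels reduced the number of calls was not tested.

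The genes were next set against lists of pathway genes, written with earlier results of these data known, and a list is described by its counts and its median. Each count stands beside the 26.1% of all genes that rose and the 24.9% that fell on average. Genes for histone deacetylases of class I, II and IV went both ways: 4 of the 11 measured rose and 3 fell, with a median change of 0.03. In a list this short these counts are not far from the shares of all genes. HDAC3, the catalytic subunit of the NCoR and SMRT corepressors, had 10.30, 10.26 and 10.37 in treated HEL cells, against 9.21, 9.18 and 9.05 in untreated ones. The UKE1 arrays read 10.79, 10.82 and 10.79 with drug, against 9.79, 9.68 and 9.61 without. HDAC11, the only class IV enzyme, had 7.81, 7.61 and 8.02 in treated and 6.52, 6.45 and 6.38 in untreated HEL cells, and 6.56, 6.48 and 6.35 in treated and 5.44, 5.35 and 5.22 in untreated UKE1 cells. Both belonged to the core, at 2.2-fold and 2.37-fold higher on average. HDAC5 rose by 0.49 and HDAC1 by 0.34, while HDAC7 fell by 0.46, HDAC8 by 0.31 and HDAC2 by 0.19. The changes of HDAC4, HDAC6, HDAC9 and HDAC10 lay between -0.05 and 0.06 and were not called.

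Subunits of the corepressor complexes went both ways: of 21 measured, 9 rose and 5 fell, beside 26.1% and 24.9% of all genes, with a median of 0.04. RCOR2, a partner of LSD1, rose by 0.82 and GPS2, a subunit of the HDAC3 complex, by 0.43. The 5 that fell on average were MBD3 (-0.73), MTA2 (-0.64), MTA1 (-0.35), CHD3 (-0.21) and RBBP4 (-0.15), members of the NuRD complex. CHD3 changed by 0.07 in HEL and -0.49 in UKE1. Not all members of NuRD fell: HDAC1 rose by 0.34 and MBD2 (0.13) was not called, while HDAC2 fell by 0.19. The call of RBBP4 was lost without the second treated UKE1 array, where its change was -0.13.

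Acetyltransferases and bromodomain readers fell more often: of 16 measured, 11 fell and 3 rose, 9 fell in both lines, and the median was -0.51. KAT5, the catalytic subunit of the TIP60 complex, had 7.97, 7.74 and 8.04 in treated HEL cells, against 9.23, 9.17 and 9.13 in untreated ones. Levels in UKE1 were 7.25, 7.50 and 7.39 with drug, against 8.64, 8.64 and 8.50 without, and the average change was -1.24 ± 0.0608 (SE). BRD9, a reader in a SWI/SNF complex, changed by -1.03 and was also in the core. KAT6B fell by 0.93, CREBBP by 0.91 and its paralogue EP300 by 0.55. The genes that rose were BRD7 (0.19), ATAD2 (0.19) and HAT1 (0.18), and KAT6A (0.08) and BRD3 (-0.08) were not called. The call of HAT1 was lost without 1 of 5 arrays (HEL treated 2, HEL untreated 3, UKE1 treated 1, UKE1 untreated 1 or 3), and that of ATAD2 without 1 of 3 (HEL treated 2, HEL untreated 1 or UKE1 treated 3), so 1 gene of the list rose without the second treated HEL array. Their changes over all alternatives were 0.13 to 0.23 and 0.15 to 0.23.

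**Figure D4:**
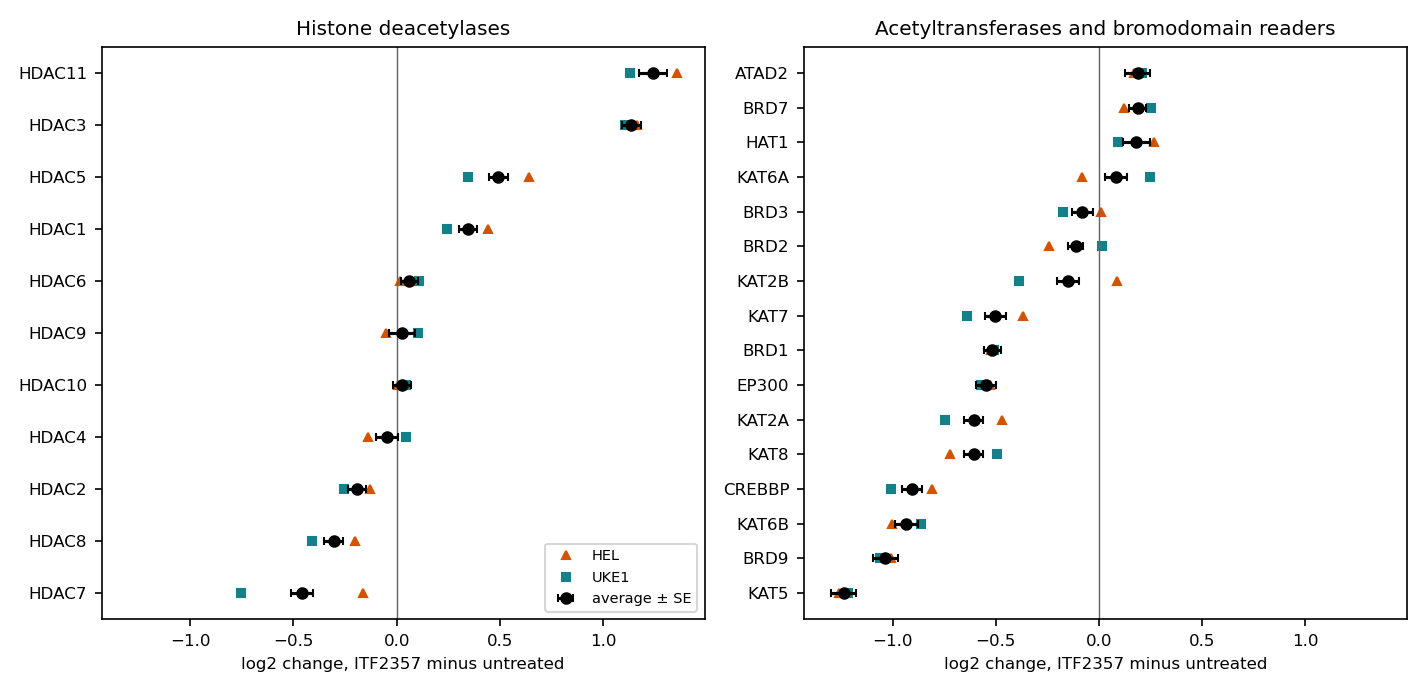
Average log2 change (black, with SE) and change in HEL (triangles) and UKE1 (squares) for 11 histone deacetylases (left) and 16 acetyltransferases and bromodomain readers (right). HDAC11 and HDAC3 stand above 1 in both lines while the other deacetylases lie between -0.46 and 0.49 on average; 11 of the 16 genes on the right fell, KAT5 and BRD9 by over 1 in both lines.

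Genes for linker histones and for core histones with polyadenylated transcripts rose, 8 of 11 measured, with a median of 0.51. H1-10 rose by 1.27, H2AJ by 0.73, H3-3B by 0.65 and H1-2 by 0.57, while H2BC4 fell by 0.24 and H2AZ1 (-0.06) and H2AZ2 (0.10) were not called. Of 12 genes often raised by histone deacetylase inhibitors, 7 rose, THBD (thrombomodulin) fell by 0.34 and 4 were not called. In this list 2 genes fell without 1 of 4 arrays (HEL treated 2, HEL untreated 3, UKE1 treated 2 or UKE1 untreated 3). GLRX, a glutaredoxin, changed by 2.71 in HEL and 1.22 in UKE1. DHRS2, a short-chain dehydrogenase, rose by 1.33 on average, with 0.56 in HEL and 2.09 in UKE1, and SYT11, a synaptotagmin, by 1.00 in both. CDKN1A, which halts the cell cycle, had 8.77, 8.63 and 8.77 in treated HEL cells, against 7.73, 7.79 and 7.63 in untreated ones. In UKE1 it had 8.32, 8.39 and 8.36 with drug, against 7.93, 7.89 and 7.92 without, so it rose in each line and more in HEL.

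Ribosome biogenesis showed the most uniform shift of the lists. Of 27 measured factors 26 fell on average and 0 rose, 21 fell in both lines, and the median change was -0.74 beside 0.0 over all genes. FBL, which methylates rRNA, was the exception, at -0.12 and not called (adjusted p = 0.0947); without the first treated UKE1 array it was called at -0.15. Core members besides UTP20 were MRTO4 (-1.37) and RRS1 (-1.34), which act in assembly of the large subunit, NOP16 (-1.26) and the pseudouridine synthase PUS7 (-1.08). TSR1, which acts on the small subunit, fell by 1.03. Of 25 genes of RNA polymerases I and III, 18 fell and 2 rose, POLR1D (0.32) and BRF1 (0.17), with a median of -0.31. UBTF, which binds the promoter of rRNA genes, fell by 0.60 in HEL and 1.58 in UKE1, POLR3D by 1.00 on average, POLR3B by 0.98 and POLR1C by 0.82.

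Of 29 genes of nucleotide and polyamine synthesis, 17 fell on average, 6 rose and 6 were not called, 13 fell in both lines, with a median of -0.24. Next to CTPS1, CAD, which starts pyrimidine synthesis, fell by 1.24, ATIC, a purine enzyme, by 1.03, and SRM, spermidine synthase, by 0.94. Of 19 aminoacyl-tRNA synthetases, 13 fell on average and 10 in both lines, 5 were not called and RARS1 rose by 0.17, with a median of -0.26. Without the first untreated HEL array, 2 synthetases rose. LARS1 fell by 0.59, AARS1 by 0.53, and NARS1 and TARS1 by 0.50 each.

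In the network around MYC, 6 of 12 genes rose and 4 fell, beside 26.1% and 24.9% of all genes, with a median of 0.13. MXD1 and MYCN were in the core. MYC itself had 11.19, 11.21 and 11.28 in treated HEL cells, against 12.02, 12.01 and 12.03 in untreated ones. The UKE1 arrays read 11.37, 11.38 and 11.27 with drug, against 11.54, 11.62 and 11.53 without. It fell in each line and more in HEL, by 0.79 there and 0.22 in UKE1. MYCN, its relative, had 7.70, 7.58 and 7.85 in treated HEL cells, against 9.34, 9.02 and 9.28 in untreated ones, and 8.36, 8.27 and 8.43 in treated UKE1 cells, against 9.49, 9.49 and 9.54 in untreated ones. MXD1, which competes with MYC for MAX and represses, went the other way, with 9.70, 9.63 and 9.67 in treated and 8.61, 8.66 and 8.50 in untreated HEL cells. In UKE1 MXD1 had 9.59, 9.70 and 9.69 with drug, against 8.48, 8.42 and 8.42 without. MGA fell by 0.65 and MLX by 0.38.

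**Figure D5:**
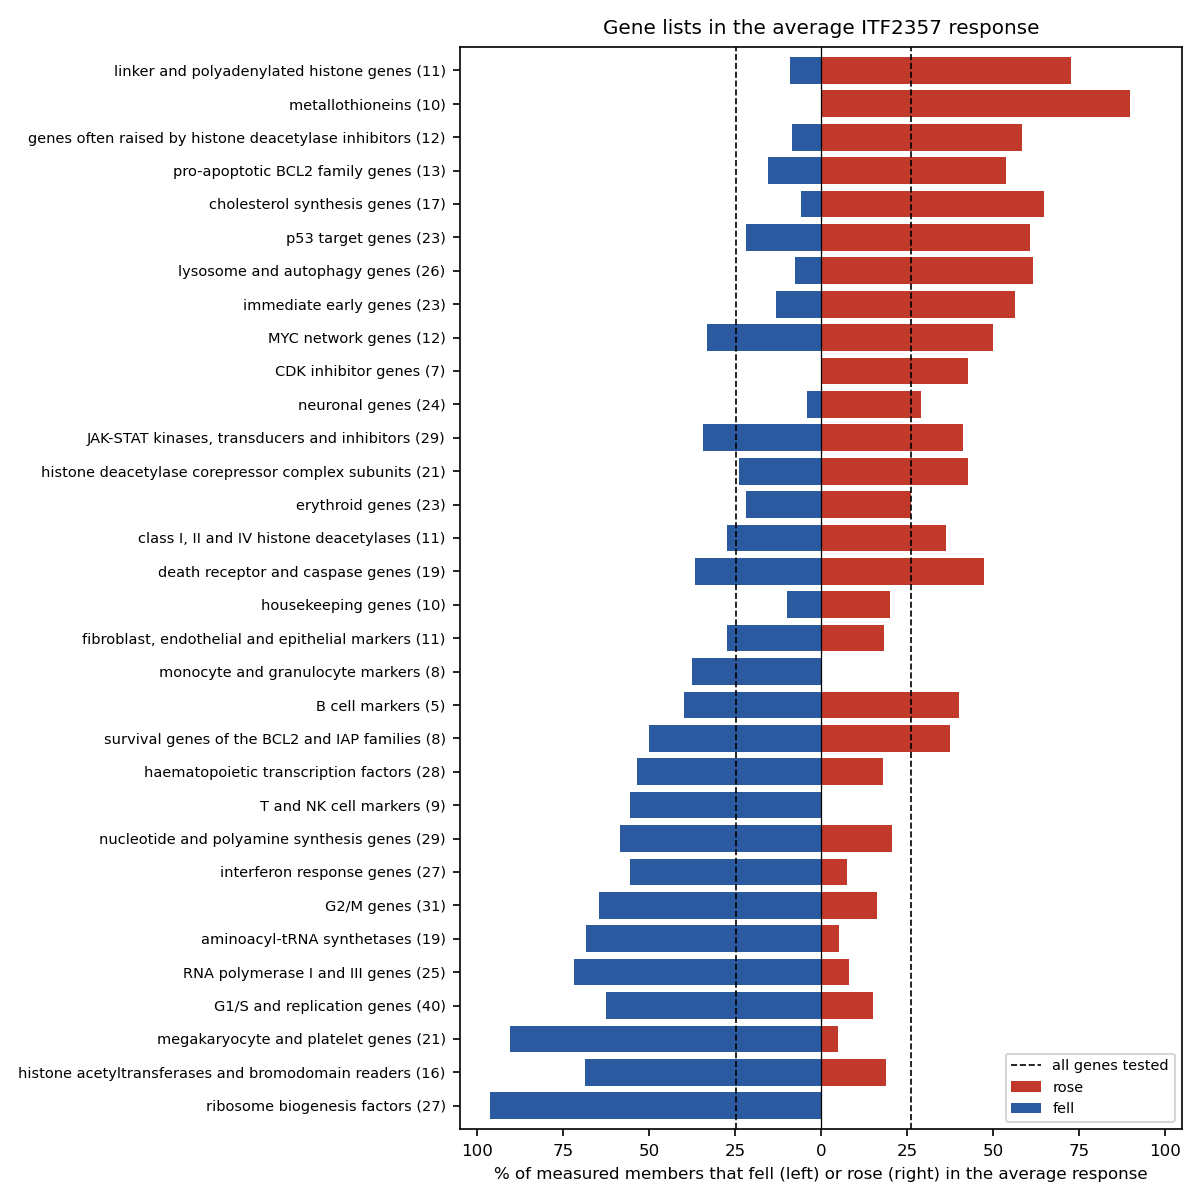
Percent of the measured members (number in brackets) of 32 gene lists that rose (red, right) or fell (blue, left) in the average response, ordered by median change; dashed lines mark all 18417 genes tested, 26.1% and 24.9%. Ribosome biogenesis and megakaryocyte genes reach farthest to the left and metallothioneins and histone genes farthest to the right.

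Transcription factors of blood formation fell more often than they rose, with 15 of 28 down, 5 up and a median of -0.19. NFE2, which drives late megakaryocyte genes, had 9.09, 9.04 and 9.29 in treated HEL cells, against 10.61, 10.46 and 10.50 in untreated HEL cells. Levels in UKE1 were 6.92, 6.92 and 6.98 with drug, against 8.54, 8.50 and 8.43 without. MYB, which keeps progenitors cycling, had 9.82, 9.85 and 9.83 in treated HEL cells, against 11.23, 11.29 and 11.20 in untreated ones. In UKE1 it had 10.06, 9.92 and 10.05 with drug, against 11.42, 11.34 and 11.38 without. TAL1, a regulator of blood stem cells and red cells, changed by -1.12 in HEL and -1.28 in UKE1 and completed the core members of the list. The difference between the lines was not called for NFE2, MYB or TAL1. GATA1, the main erythroid factor, fell by 0.49 in HEL and 0.60 in UKE1. The 5 that rose were ETS1 (1.41), CEBPB (0.63), MEIS1 (0.28), ERG (0.22) and LDB1 (0.22). Of these, ETS1 and CEBPB rose in both lines, while ERG changed by 1.08 in HEL and -0.64 in UKE1.

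Genes of megakaryocytes and platelets fell, 19 of 21 measured on average and 11 in both lines, with a median of -0.38. ANGPT1, a ligand of the TIE2 receptor, was in the core (-1.40 in HEL and -2.28 in UKE1). THBS1, thrombospondin, fell by 1.05, RAB27B, which moves platelet granules, by 0.98, and GP1BA, a subunit of the von Willebrand factor receptor, by 0.83. CD9 rose by 0.20 on average, with 0.86 in HEL and -0.46 in UKE1, and PPBP (-0.13) was not called, although it was without the second treated HEL array (-0.17). In bulk RNA, fewer cells of a type and less of their RNA per cell cannot be told apart. Of 23 erythroid genes, 6 rose and 5 fell, shares close to the 26.1% and 24.9% of all genes, and the median was 0.04. CA2, carbonic anhydrase, rose by 0.52 on average but changed by 1.57 in HEL and -0.53 in UKE1, and FECH, which inserts iron into haem, rose by 0.47. UROD, another haem enzyme, fell by 0.50 and was called in both lines. The other falls were not shared. ERMAP fell by 0.40 on average (-0.125 in HEL and -0.68 in UKE1) and EPB42 by 0.38 (-0.64 and -0.12). RHAG fell by 0.35 on average (0.20 in HEL and -0.90 in UKE1) and ANK1 by 0.28 (-0.67 and 0.12).

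Of 29 JAK-STAT genes, 12 rose and 10 fell, beside 26.1% and 24.9% of all genes, with a median of 0.06. STAT5A, a main relay of JAK2, had 9.64, 9.65 and 9.79 in treated HEL cells, against 10.68, 10.70 and 10.75 in untreated ones. The UKE1 arrays read 9.05, 9.17 and 9.13 with drug, against 10.03, 10.00 and 9.99 without. Its average change of -0.95 ± 0.043 (SE, adjusted p = 5.23e-10) showed no called difference between lines. JAK2 fell by 0.23 on average, with 0.10 in HEL and -0.57 in UKE1 and a called difference between them. PTPN1, a phosphatase that acts on JAK2, rose by 0.75, and CBL, a ubiquitin ligase for receptors and kinases, by 0.85. STAT4, described above, was the core member of the list.

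Cell cycle genes fell more often than they rose. Of 40 genes of G1/S and replication, 25 fell and 6 rose (median -0.33, with -0.15 in HEL and -0.41 in UKE1), and of 31 genes of G2/M, 20 fell and 5 rose (median -0.26). GINS3, of the replicative helicase, fell by 1.29, UNG, uracil glycosylase, by 0.82, and E2F8, an atypical E2F, by 0.81, while the kinase CDK2 rose by 0.65. PLK1, a mitotic kinase, fell by 0.94, FOXM1, a driver of mitotic genes, by 0.88, CCNB1, cyclin B, by 0.72 and UBE2C by 0.63. The 5 G2/M genes that rose were NEK2 (0.59), PTTG1 (0.54), CDC25C (0.47), KIF11 (0.36) and CDC25B (0.12), the last no longer called without the second treated UKE1 array (0.11). Of 7 CDK inhibitor genes CDKN1A, CDKN3 (0.46) and CDKN1C (0.14) rose and 0 fell (limma), while 1 fell without the third untreated HEL array. The call of CDKN1C was lost when 1 of 7 arrays was left out and in 9 of 19 alternatives, with changes from 0.11 to 0.18.

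Among apoptosis genes, BCL2L11 (BIM), a killer protein of the BCL2 family, was in the core. It had 8.80, 8.79 and 8.93 in treated HEL cells, against 7.79, 7.78 and 7.86 in untreated ones, and 8.35, 8.29 and 8.45 in treated UKE1 cells, against 7.16, 7.41 and 7.29 in untreated ones. Of 13 pro-apoptotic BCL2 family genes, 7 rose and 2, BID (-0.30) and BAX (-0.21), fell, with a median of 0.38 on average but 0.05 in HEL and 0.30 in UKE1. BMF rose by 1.05, BNIP3L by 0.54 and PMAIP1 (NOXA) by 0.44, with 0.03 in HEL and 0.85 in UKE1 for the last. Of 8 survival genes, BCL2L1 (BCL-XL) fell by 0.86 and XIAP by 0.63, each called in both lines. On average BCL2 fell by 0.35 and BIRC5 by 0.23, but neither was called in HEL. BCL2 changed by 0.055 in HEL and -0.76 in UKE1, and BIRC5 by -0.17 and -0.29. BCL2A1 rose by 0.47, BCL2L10 by 0.45 and MCL1 by 0.41, and BIRC2 (-0.03) was not called. Of 19 genes of death receptors and caspases, 9 rose and 7 fell (median 0.01), beside 26.1% and 24.9% of all genes. APAF1, the apoptosome scaffold, was in the core at 1.36. CASP10 rose by 1.21, TNFRSF10B (the TRAIL receptor DR5) by 1.08, with 1.96 in HEL and 0.20 in UKE1, and TNFRSF10D by 0.65.

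Of 23 p53 target genes 14 rose and 5 fell, with a median of 0.32. CCNG2 (1.32) and TP53INP1 (1.27) were in the core and SESN1 rose by 0.99. The 5 that fell were AEN (-1.06), MDM2 (-0.68), FAS (-0.50), PLK3 (-0.41) and BAX, and MDM2, the ubiquitin ligase of p53, changed almost equally in HEL (-0.67) and UKE1 (-0.69). FAS fell in UKE1 (-1.14) and had 0.15 in HEL.

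The next 4 lists held more rises than falls. Of 10 metallothioneins, which bind zinc and copper, 9 rose and 0 fell (limma), with a median of 0.43; MT1X rose by 0.89, MT1G by 0.68, MT2A by 0.64 and MT1M by 0.42, and MT3 (0.07) was not called. Of 23 immediate early genes 13 rose, among them ZFP36L1 (0.90), DUSP5 (0.90), DUSP1 (0.88) and JUN (0.70, with 0.12 in HEL and 1.27 in UKE1). The 3 that fell were DUSP2 (-0.37), FOSL1 (-0.34) and JUND (-0.16). Of 26 lysosome and autophagy genes 16 rose, with a median of 0.27. NEU1, a lysosomal sialidase, and GABARAPL1, which coats autophagosomes, were in the core at 1.48 and 1.07. WIPI1 rose by 1.12 and ATP6V1H, of the proton pump, by 0.64, and ATG7 (-0.54) and BECN1 (-0.30) fell. Of 17 cholesterol synthesis genes 11 rose, with a median of 0.32 on average, 0.40 in HEL and 0.11 in UKE1, and with TM7SF2 at 0.82, LSS at 0.78, EBP at 0.49 and SQLE at 0.46. SREBF2, which drives the pathway, had -0.11, a call that held without the first untreated HEL array and was lost without any 1 of the other 11.

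Of 27 interferon response genes measured, 15 fell on average, 8 fell in both lines and 10 were not called. The median change was -0.25 on average, with -0.06 in HEL and -0.42 in UKE1. A difference between the lines was called for 16 of the 27, beside 23.9% of all genes. Besides RSAD2 the genes that fell included IFI44L (-1.42), IRF9 (-0.71), a transcription factor of the interferon response, and MX2 (-0.67). The 2 that rose were IFI6 (0.71) and IRF1 (0.47). Of 24 neuronal genes, 7 rose and RBFOX3 fell by 0.22, while 16 were not called, with a median of 0.06. The share that rose was close to the 26.1% of all genes. SERPINI1, neuroserpin, and ENO2, neuronal enolase, were in the core beside TMOD2, at 2.16 and 1.32. Of 10 housekeeping genes, SDHA (0.30) and B2M (0.15) rose and PPIA fell by 0.17, and the change of GAPDH was 0.10 (adjusted p = 0.0556).

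Markers of other cell types are given as measured, beside 26.1% of all genes that rose and 24.9% that fell. Of 9 T and NK cell markers, NKG7 (-0.36), CD8B (-0.35), CD3G (-0.26), CD2 (-0.25) and CD3E (-0.15) fell, and 0 rose (limma); the call of CD3E was lost without the third treated HEL array (-0.12) or the second untreated one (-0.13). Of 5 B cell markers, CD22 (0.75, with 0.13 in HEL and 1.37 in UKE1) and PAX5 (0.31) rose, and MS4A1 (-0.33) and CD79A (-0.27) fell. Of 8 markers of monocytes and granulocytes, CSF1R (-0.76, with -0.08 in HEL and -1.44 in UKE1), MPO (-0.34) and S100A8 (-0.31) fell. Of 11 fibroblast, endothelial and epithelial markers, KRT19 (0.34) and COL1A1 (0.27) rose and CDH5 (-0.99, with -0.48 in HEL and -1.49 in UKE1), KDR (-0.36, with 0.38 in HEL and -1.10 in UKE1) and KRT18 (-0.21) fell. Their part in the changes above was not tested.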

How the data were processed

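RNA of 12 cultures was measured on 12 arrays. The deposited values are log2 levels, made with Affymetrix Expression Console and RMA per the submitters' processing notes, with versions not given in the sources used here. No label states the log base, which was read from the range of the values, 1.26 to 14.36. Of 33297 array rows, 19460 carried 1 gene symbol and were used, 1754 carried several and 12083 none. For 769 genes with several rows the row of highest mean was taken, leaving 18417 genes.

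Linear models with 4 group means and 8 residual degrees of freedom were fitted with limma 3.58.1 (lmFit and eBayes) in R 4.3.3. P-values were adjusted by Benjamini-Hochberg over all genes, with a threshold of 0.05, and the steps were tested on simulated data. The response average, the response in each line and the difference of the responses were contrasts of 1 fit.

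Members and lists were chosen with earlier results of these data known. Named were the 15 increases and 15 decreases whose smaller change was largest, 5 genes called on average but in neither line, per list up to 4 members of lowest adjusted p, and 9 genes set by name: MYC, MYB and TAL1, then CDKN1A, BCL2L1 and JAK2, then NFE2, STAT5A and GATA1. The increases and decreases were taken only among genes whose treated arrays all lay beyond the untreated ones in each line. Other genes were named after their values were seen, as members of small counts, core members of a list, snoRNAs and genes around them, or examples. Alternatives covered normalization, array centring, row choice, a filter on low levels, a stricter threshold, eBayes settings, each line alone, the replicate block and leaving out 1 array. Sequences are RefSeq's on GRCh38.p14.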

Additional observations from a re-analysis of the deposited data

Results flagged for a closer look

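Of the 250 genes named by rule, by list or as members of small counts, 88 responded differently in the lines by limma's test of the difference (adjusted p under 0.05 over all genes). Over all genes tested the share was 23.9% (4395 of 18417). The 250 were chosen in part by their values, so their count says nothing about genes at large. The value in brackets is the UKE1 response minus the HEL response on the log2 scale, so a negative value means a lower change in UKE1. It was positive for 40 genes and negative for 48. In 67 genes the changes had the same sign in the lines and in 21 opposite signs, 6 of which were called in each line.

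With the same sign in the lines and a larger change in UKE1 were WIPI1 (1.56), DHRS2 (1.53), SERPINI1 (1.37), CSF1R (-1.36), CD22 (1.23), MYBL1 (1.20), JUN (1.16), CCDC26 (-1.13), IFI44L (-1.07), CDH5 (-1.01), UBTF (-0.98) and GINS3 (-0.93). Smaller differences were those of KIF3A (0.93), SAMHD1 (0.88), ANGPT1 (-0.88), H1-10 (0.84), ETS1 (0.84), PMAIP1 (0.82), E2F8 (-0.79), NEU1 (0.76), WDR19 (0.76), BMF (0.68), H2AJ (0.67) and H3-3B (0.61). Next came RGL1 (0.60), PLK1 (-0.60), HDAC7 (-0.59), RGS18 (-0.58), ZFX (-0.55), ERMAP (-0.55), NKG7 (-0.53), MT1X (0.51), CD79A (-0.50), CD84 (-0.46), ARL3 (0.46) and BID (-0.40). These were followed by ATG7 (-0.32), IRF9 (-0.31), MT2A (0.29), GPS2 (0.28) and MT1G (0.28).

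With the same sign and a larger change in HEL were TNFRSF10B (-1.75), GLRX (-1.49), THBS1 (0.84), CASP10 (-0.84), DYNC2H1 (-0.80), CBL (-0.77), EBP (-0.77), DUSP2 (0.73), SNORD20 (0.73), SRM (0.71), MIR223 (0.69) and IFI6 (-0.67). Smaller differences were those of CDK2 (-0.63), MYC (0.57), CDKN1A (-0.56), GPR85 (0.54), LPCAT3 (-0.54), EPB42 (0.52), POLR3D (0.48), FECH (-0.41), FOSL1 (0.38), APAF1 (-0.37), SNORD49A (0.33) and HDAC5 (-0.30). Next came MLX (0.29) and SDHA (-0.27).

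With opposite signs were CA2 (-2.10), ERG (-1.72), KDR (-1.48), CD9 (-1.31), FAS (-1.30), RHAG (-1.10), CD8B (0.90), PAX5 (0.88), BCL2 (-0.82), ANK1 (0.79), RBFOX3 (-0.72) and THBD (-0.71). Smaller differences were those of S100A8 (-0.69), JAK2 (-0.67), LDB1 (-0.65), MEIS1 (-0.60), CHD3 (-0.56), H2AZ1 (-0.56), JUND (0.39), BIRC2 (0.36) and KAT6A (0.33).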

How the results depend on the processing

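The counts of genes on average, in both lines and in the core stayed within 1.5 times under each setting run, while the balance of rises and falls turned over with scaling. Fitting each line alone gave only the counts in both lines and in the core. Leaving out 1 array in turn gave 4569 to 4773 genes that rose on average and 4331 to 4551 that fell, 2361 to 2503 that rose and 2200 to 2352 that fell in both lines, 161 to 172 core genes up and 103 to 117 down, and 65 to 77 core genes whose responses differed. With the replicate number as a block, 4794 rose and 4583 fell, and the core stayed at 165 and 110, the same genes. The numbers were not taken to pair the arrays, since deviations of same-numbered arrays correlated at only -0.088 to 0.065 within a line. Quantile normalization over the 12 arrays gave 4709 rises and 4901 falls, so 49% of the calls were rises. Centring each array on its median gave 4319 rises and 5296 falls, so 44.9% of the calls were rises, against 51.2% as deposited. The alternatives for list counts and for core genes whose responses differed were chosen after seeing the data. Of 250 genes followed, 17 changed their call in some setting and 0 reversed, and 11 of 64 list counts moved by over 1.5 times in some setting. These were small counts, 3 or fewer as reported and 0 to 4 under the settings: members that fell among genes often raised by inhibitors, CDK inhibitor, cholesterol, neuronal and histone genes and B cell markers, and members that rose among acetyltransferases and readers, synthetases, survival genes, housekeeping genes and fibroblast, endothelial and epithelial markers. With 3 arrays per group, precision is limited by the number of arrays.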

Other observations

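A group outside the lists was noticed after its values were seen and is given as values without a test. Of 44 genes of ciliary transport and ciliary assembly, 36 rose on average, 0 fell (limma) and 8 were not called, and 30 rose in both lines. Their median change was 0.56 on the log2 scale, with 0.60 in HEL and 0.64 in UKE1, beside 0.0 over all genes. The core held 6 of them: KIF3A (1.54), a motor subunit, WDR19 (1.51) and IFT80 (1.17) of the intraflagellar transport trains, DYNC2H1 (1.49), the heavy chain of the return motor, BBS12 (1.46), a chaperonin-like protein, and ARL3 (1.30), a small GTPase. The lowest was KIF17 at -0.21, which was not called and was called without the first untreated HEL array.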
